A study of Mus musculus with 2 samples.

Results

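The beta-globin locus of the mouse was examined in DNase-seq libraries of fetal liver, as the 5 beta-globin genes Hbb-bt, Hbb-bs, Hbb-bh2, Hbb-bh1 and Hbb-y, with every open site and flanking gene of a window of 260001 bases around them on chromosome 7 (mm10). The 5 genes were taken by name from 21938 protein-coding genes of the GENCODE annotation. The window held 11 of the 47198 peaks of replicate 1 and 6 of the 36523 peaks of replicate 2. DNase-seq sequences the ends of DNA that DNase I cuts, so a peak marks chromatin open to the enzyme.

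The 2 libraries are biological replicates 1 and 2 of 1 group: liver of mouse embryos at day 13.5, strain C57BL/6N,129, labelled with the genotype LCR deletion, HET globin mutation. LCR is taken to mean the locus control region. The samples used here hold no control group. The sources used here do not give the extent of the deletion, what HET globin mutation stands for, or which genotype each embryo had. The libraries came from different biosamples under 1 donor identifier. The files do not separate the C57BL/6 and 129 forms of the locus. The number of intact copies of a stretch and the openness of each copy cannot be told apart in these files, and neither can the share of cells with an open site and its openness per cell.

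The beta-globin genes encode the beta-like chains of hemoglobin, and the embryonic genes lie nearer the locus control region than the adult genes. Hbb-y and Hbb-bh1 serve the primitive red cells of the yolk sac, and Hbb-bs and Hbb-bt serve the definitive red cells made in the fetal liver. The locus control region upstream of Hbb-y is a cluster of DNase I hypersensitive sites, numbered outward from that gene, which drives high expression in red cells through factors such as GATA1, TAL1, KLF1 and NFE2. Olfactory receptor genes flank the locus on both sides.

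All 5 genes are on the minus strand. Hbb-bt lies at chr7:103812524-103813996, Hbb-bs at chr7:103826534-103828096, Hbb-bh2 at chr7:103839124-103840520, Hbb-bh1 at chr7:103841637-103843164 and Hbb-y at chr7:103851749-103853216. The promoters of the genes with an open start are shown because the peaks and footprints below fall in them. They run from 250 bases before to 50 bases after the RefSeq start (build GRCm38.p6), and capitals mark every match to the GATA, NFE2, AP-1, KLF, E-box, CTCF, CCAAT and TATA-like patterns defined below.
Hbb-bt promoter, chr7:103813874-103814173, minus strand: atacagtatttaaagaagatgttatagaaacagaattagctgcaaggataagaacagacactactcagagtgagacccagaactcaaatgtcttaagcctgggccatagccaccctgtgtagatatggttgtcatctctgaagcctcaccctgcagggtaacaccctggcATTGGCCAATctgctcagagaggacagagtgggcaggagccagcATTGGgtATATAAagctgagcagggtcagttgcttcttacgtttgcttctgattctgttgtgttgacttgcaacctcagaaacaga
Hbb-bs promoter, chr7:103827879-103828178, minus strand: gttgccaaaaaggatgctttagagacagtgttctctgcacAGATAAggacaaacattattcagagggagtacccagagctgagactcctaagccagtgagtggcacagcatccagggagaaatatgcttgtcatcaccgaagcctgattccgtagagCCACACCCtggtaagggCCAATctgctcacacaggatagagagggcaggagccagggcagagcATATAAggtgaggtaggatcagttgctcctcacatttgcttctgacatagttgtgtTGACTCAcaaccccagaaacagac
Hbb-y promoter, chr7:103853158-103853457, minus strand: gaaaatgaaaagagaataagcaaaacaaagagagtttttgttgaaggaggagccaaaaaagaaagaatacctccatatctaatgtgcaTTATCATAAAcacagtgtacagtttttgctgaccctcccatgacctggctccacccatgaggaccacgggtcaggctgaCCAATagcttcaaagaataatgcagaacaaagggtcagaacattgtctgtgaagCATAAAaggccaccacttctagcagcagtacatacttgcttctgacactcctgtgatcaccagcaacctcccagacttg

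RefSeq promoters were matched for 4 of the 5 genes, all but Hbb-bh1. The promoters of Hbb-bt and Hbb-bs were identical at 74.7% of 293 aligned bases, against 61.5% of 273 for Hbb-bs and Hbb-y. Those of Hbb-bs and Hbb-bh2 were nearly as alike as the adult pair, at 73.3% of 240 bases. For Hbb-bt and Hbb-bh2 the share was 63.9% of 252. Counted from the RefSeq start, the Hbb-bs promoter held CCACACCC, the CACCC box that KLF1 is known to bind, from -93 to -86. It was followed by CCAAT from -76 to -72 and ATATAA from -30 to -25. The Hbb-bs promoter also held AGATAA from -210 to -205 and, on the opposite strand, TGAGTCA from 27 to 33. The Hbb-bt promoter held a CCAAT on each strand side by side from -80 to -71, another on the opposite strand from -36 to -32 and ATATAA from -29 to -24. The exact letters CCACACCC were not in its 300 bases. The shorter letters CACCC, which were not among the patterns searched, do occur in the Hbb-bt and Hbb-y promoters. The Hbb-y promoter held CCAAT from -83 to -79 and CATAAA from -29 to -24 and from -158 to -153. It also held TGATAA, on the opposite strand, from -162 to -157. The Hbb-bh2 promoter held AGATAA from -167 to -162 and CATAAA from 13 to 18.

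Sites far from the genes are shown next, because all but the first carry patterns that footprints overlap. Sites are named by the distance of their centre from the annotated Hbb-y start. Each sequence is the peak of replicate 1 in the reference genome (GRCm38), on the minus strand as the genes are read, with the same patterns in capitals.
Site 6.1 kb upstream of Hbb-y, chr7:103859201-103859340, minus strand: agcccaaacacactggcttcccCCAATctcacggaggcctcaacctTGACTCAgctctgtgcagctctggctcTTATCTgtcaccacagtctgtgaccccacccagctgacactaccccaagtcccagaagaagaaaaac
Site 7.9 kb upstream of Hbb-y, chr7:103861041-103861200, minus strand: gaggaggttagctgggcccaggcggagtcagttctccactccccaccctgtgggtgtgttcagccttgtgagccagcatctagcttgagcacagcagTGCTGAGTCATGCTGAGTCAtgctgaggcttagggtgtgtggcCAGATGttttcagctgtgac
Site 17.7 kb upstream of Hbb-y, chr7:103870781-103870980, minus strand: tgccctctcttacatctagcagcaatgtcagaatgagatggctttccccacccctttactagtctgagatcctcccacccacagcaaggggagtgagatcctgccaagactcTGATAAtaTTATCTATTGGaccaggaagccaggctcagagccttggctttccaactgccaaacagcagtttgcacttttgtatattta
Site 57 kb upstream of Hbb-y, chr7:103910081-103910300, minus strand: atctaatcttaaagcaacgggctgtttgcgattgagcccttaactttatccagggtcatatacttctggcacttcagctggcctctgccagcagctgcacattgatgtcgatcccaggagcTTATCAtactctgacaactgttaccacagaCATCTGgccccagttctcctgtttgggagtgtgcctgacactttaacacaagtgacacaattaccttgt
Site 89.7 kb upstream of Hbb-y, chr7:103942841-103943040, minus strand: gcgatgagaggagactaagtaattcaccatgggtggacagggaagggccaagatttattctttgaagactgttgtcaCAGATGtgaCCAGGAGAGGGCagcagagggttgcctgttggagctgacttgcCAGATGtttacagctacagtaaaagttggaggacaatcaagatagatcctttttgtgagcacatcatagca

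The site 7.9 kb upstream of Hbb-y carried TGAGTCA, each time directly preceded by TGC, in 2 adjoining copies. A tandem pair of this NFE2 pattern is the known mark of hypersensitive site 2. The site 89.7 kb upstream carried the letters CCA, AG and GGC with 2 free bases between them, the core used here for CTCF, the factor that binds insulators. The site 17.7 kb upstream held AGATAA and TGATAA, facing each other on opposite strands 2 bases apart.

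Among the libraries as a whole, 29534 peaks of replicate 1 and 23395 of replicate 2 were also in a shorter list. The peak value is the authors' depth-normalised cleavage signal. Values were whole multiples of 0.0123 in replicate 1 and 0.0139 in replicate 2, to within 0.00505 of a step. Read as 1 read a step, an assumption, this puts the depth at 81.2 and 72.1 times 1e6 reads. The intervals given are 95% Poisson intervals on that reading and cover counting error only. Over the 26687 peaks shared 1 to 1, the median log2 ratio of replicate 2 to replicate 1 was -0.50. The sources used here do not give how the values of the libraries compare. With 1 library against 1 library, ratios are descriptions with no test. Of the defining red cell genes, 9 of 9 were open at a start (a peak within 1000 bases) in replicate 1, beside 57.3% of all protein-coding genes, and 8 of 9 in replicate 2, beside 54.1%. In replicates 1 and 2 the counts were 4 and 2 of 7 for hepatoblast genes, 0 and 0 of 5 for macrophage genes, 1 and 1 of 4 for endothelial and for mesenchymal genes, 1 and 2 of 4 for megakaryocyte genes, and 1 and 1 of 3 for lymphoid genes.

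**Figure D1:**
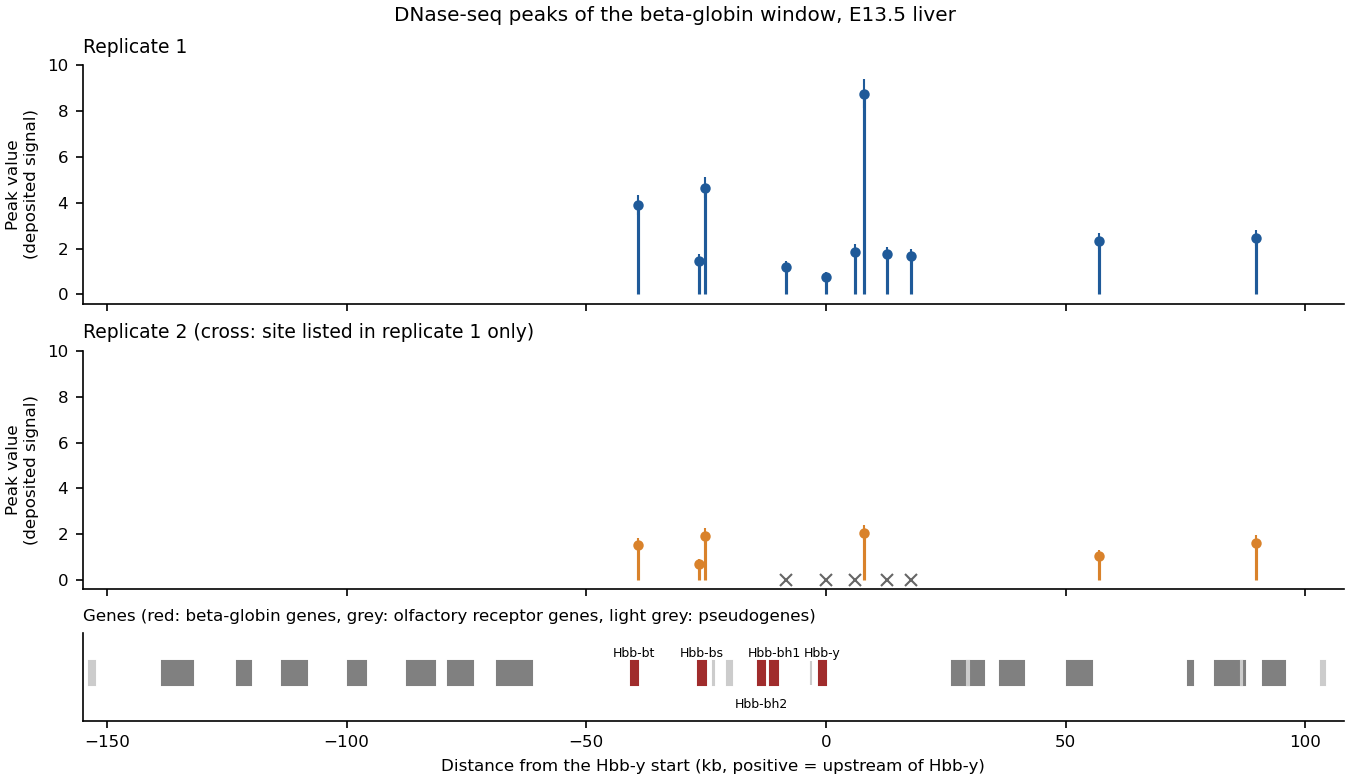
Peak values (deposited signal, vertical axes) of replicate 1 (top) and replicate 2 (middle) against distance from the Hbb-y start in kb, with 95% Poisson intervals, and the genes of the window (bottom). Replicate 1 has 11 peaks, the highest 7.9 kb upstream of Hbb-y at 8.75, while replicate 2 has 6, all at or below 2.05; crosses mark the 5 sites listed in replicate 1 only.

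The adult genes were open at their starts in both libraries. The peaks cover exon 1 of each gene in GENCODE, in part or whole, and bases just upstream; with the RefSeq starts, the Hbb-bs peak lies from -172 to -33 and the Hbb-bt peak from -137 to 62. The peak at the Hbb-bs start (chr7:103827961-103828100) had a value of 4.65 (4.19 to 5.14) in replicate 1, against 1.91 (1.61 to 2.26) in replicate 2. The peak at the Hbb-bt start (chr7:103813861-103814060) had 3.88 (3.46 to 4.33) in replicate 1, against 1.54 (1.27 to 1.85) in replicate 2. Both genes thus kept the same order, with Hbb-bt at 0.836 (0.719 to 0.970) of the Hbb-bs value in replicate 1 and at 0.804 (0.626 to 1.03) in replicate 2. In replicate 1 the interval of that ratio ends below 1, and in replicate 2 it includes 1. Within their own libraries the Hbb-bs start exceeded 83.4% and 66.4% of peaks.

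The embryonic genes had few or no open bases. Hbb-y, a yolk sac gene, had a peak at its start (chr7:103853238-103853365) with a value of 0.764 (0.586 to 0.979) in replicate 1. The peak was in the longer list alone, and replicate 2 had none there. This peak had 0.164 (0.126 to 0.215) of the value at the Hbb-bs start. Hbb-bh1, the other yolk sac gene, had its nearest peak 1537 bases from the start in replicate 1 and 15064 bases away in replicate 2. Hbb-bh2, a further beta-like gene whose nearest peaks lay 4181 and 12420 bases away, had no base under 0.05 in the deposited false discovery rate (FDR) of the cut rate within 1000 bases of its start in either library.

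A gene with a peak within 1000 bases of a start was counted as having an open promoter. That held for 3 of the 5 beta-globin genes in replicate 1, beside 57.3% of all protein-coding genes, and for 2 of 5 in replicate 2, beside 54.1%. In both libraries it held for 2 of 5, Hbb-bt and Hbb-bs, beside 52.9%. The counts for 5 genes are near these shares and are not a result about the globin genes as a list.

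Weaker sites lay inside the gene cluster. A peak over the last exon of Hbb-bs, numbered 2 or 3 by transcript and partly coding and partly untranslated (chr7:103826601-103826780), had 1.45 (1.204 to 1.74) in replicate 1, against 0.693 (0.514 to 0.914) in replicate 2, where the shorter list did not hold it. Of its 145 words of 36 bases, 53 recur elsewhere, all of them within the window, so reads there can be shared between near-identical copies. A peak 1537 bases upstream of Hbb-bh1 (chr7:103844701-103844920) had 1.18 (0.958 to 1.44) in replicate 1 and none in replicate 2. There 50 of 185 words recur in the genome outside the window, and the sources used here do not say what was done with reads that match several places. The other 9 peaks held no recurring word.

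The peaks upstream of Hbb-y overlap no annotated exon. In that stretch, where the reference genome holds the locus control region, the highest site lay 7.9 kb from the gene (chr7:103861041-103861200). Its value was 8.75 (8.12 to 9.42) in replicate 1, against 2.05 (1.73 to 2.41) in replicate 2. In replicate 1 it was 1.88 (1.66 to 2.13) times the Hbb-bs start, and in replicate 2 it was 1.07 (0.850 to 1.35) times that start. It was thus the highest site of the window in both libraries by value, although the interval of replicate 2 includes the level of the Hbb-bs start. The sites 6.1 kb (chr7:103859201-103859340), 12.7 kb (chr7:103865781-103865980) and 17.7 kb (chr7:103870781-103870980) upstream had 1.86 (1.58 to 2.18), 1.77 (1.496 to 2.09) and 1.68 (1.41 to 1.98) in replicate 1. Replicate 2 had no peak at any of these 3 sites.

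Farther upstream, among the olfactory receptor genes, 2 sites were present in both libraries. The site 57 kb upstream (chr7:103910081-103910300) had 2.32 (2.00 to 2.67) in replicate 1, against 1.03 (0.805 to 1.29) in replicate 2. The site 89.7 kb upstream (chr7:103942841-103943040) had 2.44 (2.11 to 2.80) in replicate 1, against 1.62 (1.34 to 1.94) in replicate 2. Relative to the Hbb-bs start, the 57 kb site stood at 0.499 (0.419 to 0.594) in replicate 1, against 0.536 (0.404 to 0.711) in replicate 2, with overlapping intervals. The 89.7 kb site stood at 0.525 (0.442 to 0.624) in replicate 1, against 0.848 (0.663 to 1.08) in replicate 2, and these intervals did not overlap.

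Of the 11 sites of replicate 1, 6 overlapped a peak of replicate 2, beside 64.4% of all peaks of replicate 1. All 6 sites of replicate 2 overlapped a peak of replicate 1, beside 82.3% of all peaks of replicate 2. Across the genome, higher peaks were met by a replicate 2 peak more often than low ones. Of distal peaks (over 1000 bases from any annotated start) within 0.25 log2 units of the replicate 1 value, 82.9% were met for the 6.1 kb site, 81.7% for the 12.7 kb site and 78.8% for the 17.7 kb site. The share was 63.3% for the site upstream of Hbb-bh1. For the Hbb-y start, which is not distal, 44.2% of all peaks of like value were met. None of the 5 unmet sites held a base with a replicate 2 FDR under 0.05, beside 15.5% of all unmet peaks of replicate 1, a count near that background.

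**Figure D2:**
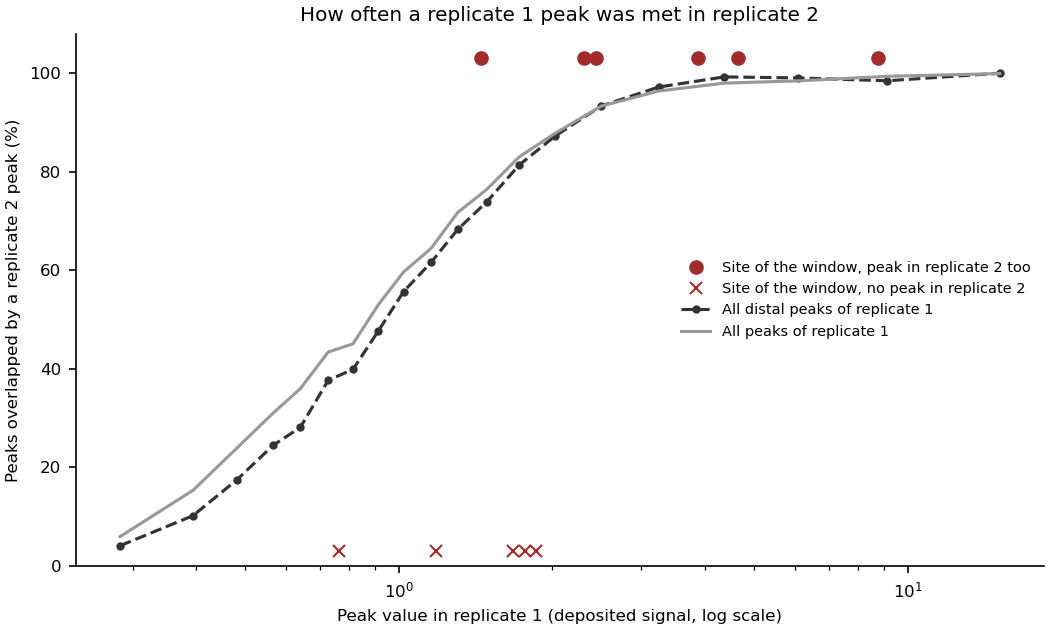
Share of replicate 1 peaks overlapped by a replicate 2 peak (vertical axis, percent) against the replicate 1 peak value (log scale), in 20 classes of value, for all and for distal peaks. Red dots at the top mark the 6 sites of the window met in replicate 2 and red crosses at the bottom the 5 unmet ones; 3 crosses lie between 1.68 and 1.86, where most peaks were met.

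At the 6 shared sites the log2 ratio of replicate 2 to replicate 1 was under -1 at 5, beside 16.7% of all shared peaks. It was -2.09 (-2.35 to -1.84) at the 7.9 kb site, -1.33 at the Hbb-bt start, -1.28 at the Hbb-bs start, -1.18 at the 57 kb site and -1.07 at the 3' part of Hbb-bs. The 89.7 kb site had -0.59. Of the 26687 shared peaks, 7 had a lower ratio than the 7.9 kb site. Among 159 distal shared peaks of like replicate 1 value the median was -0.98 and the lowest -1.85, so none was lower.

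High peaks had lower ratios than low peaks throughout the genome, so each ratio was also set against shared peaks of like height. Less the running median over such peaks, ranked by the mean of both libraries, the ratio was -1.42 at the 7.9 kb site. It was -0.80 at the Hbb-bt start, -0.76 at the 57 kb site, -0.72 at the 3' part of Hbb-bs, -0.71 at the Hbb-bs start and -0.12 at the 89.7 kb site. Ranked by replicate 1 alone, the differences were -1.22 at the 7.9 kb site, -0.74 at the Hbb-bt start, -0.65 at the 57 kb site, -0.70 at the 3' part of Hbb-bs, -0.61 at the Hbb-bs start and -0.07 at the 89.7 kb site. The 57 kb site and the 3' part of Hbb-bs changed places between the rankings. On simulated peaks with a planted shift of -1.5 the first ranking read -1.70 and the second -1.47. The simulation tied the trend to the replicate 1 value and put noise in replicate 2 only, a setting that favours the second ranking. It therefore cannot show which ranking is closer for these libraries.

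The promoters of the red cell genes give a measure of scale. At 8 of them the log2 ratio had a median of -1.24, but several, such as Epb41 at 33.0 in replicate 1, were much higher than the globin sites. Each ratio was therefore set against the median of all shared peaks within 0.25 log2 units of its replicate 1 value, a comparison chosen after the values were seen. On that scale the 8 promoters had a median difference of -0.11. The Hbb-bt start had -0.72 and the Hbb-bs start -0.63, both under this median and above the lowest of the 8 promoters, and the 7.9 kb site had -1.22, below all 8. At 47 distal shared peaks within 50000 bases of those genes, the plain log2 ratio, not set against peaks of like value, had a median of -0.46. The lowest was -1.82. Over all 11678 distal shared peaks the median of the plain ratio was -0.44, near that of the 47. The highest of the 47 peaks had 15.9 in replicate 1, above the 7.9 kb site. How far the lower values at red cell promoters bear on the globin ratios was not tested.

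**Figure D3:**
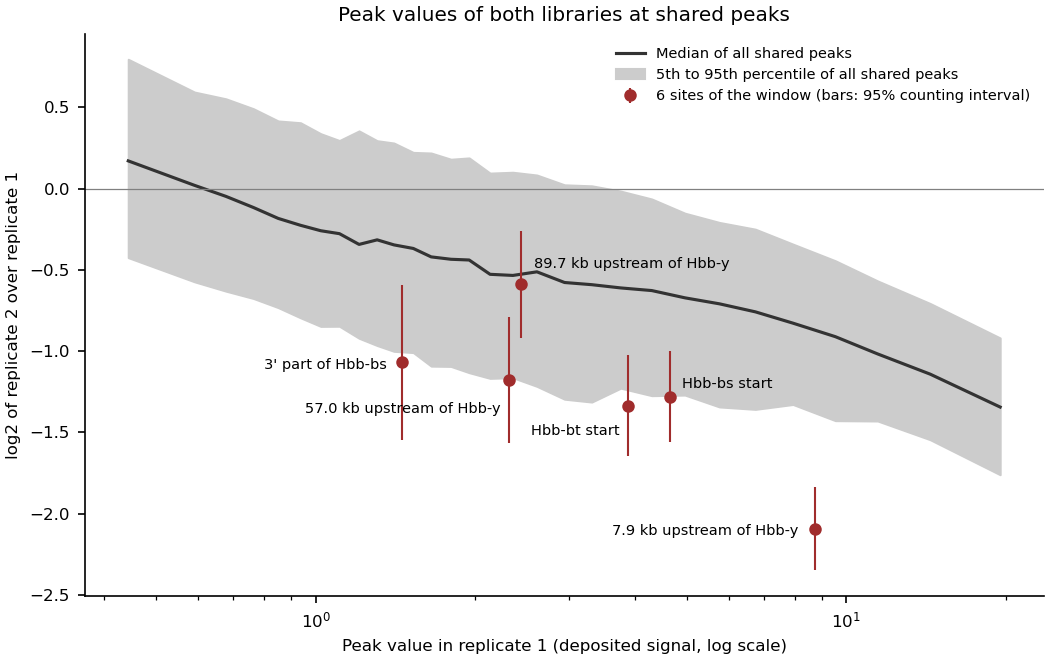
The log2 ratio of replicate 2 over replicate 1 (vertical axis) against the replicate 1 peak value (log scale) for the 6 shared sites of the window, with 95% counting intervals, over the median and the 5th to 95th percentile of all shared peaks. The 7.9 kb site lies far below the band at -2.09, the Hbb-bt start and the 3' part of Hbb-bs just below it, the Hbb-bs start and the 57 kb site at its lower edge, and the 89.7 kb site near the median at -0.59.

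At base level, the authors' FDR of the cut rate showed the same 11 sites, and no stretch under 0.05 lay outside them. The FDR and the peaks describe the same libraries, so their match is not independent support. At the Hbb-y start in replicate 1 the peak and the FDR stretch had the same bounds. The lowest FDR of the window was 1.37e-39 in replicate 1, at the 7.9 kb site, where replicate 2 reached 1.09e-07. In replicate 2 the lowest was 3.09e-08, at the Hbb-bs start, where replicate 1 reached 1.32e-15. The 89.7 kb site reached 7.14e-08 in replicate 1 and 5.62e-07 in replicate 2, over 284 and 272 bases, the closest match between libraries in the window. The Hbb-y start reached 0.00505 over 128 bases in replicate 1.

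Summed over the window, 3418 bases had an FDR under 0.05 in replicate 1 and 1603 in replicate 2. That is 1.31% and 0.617% of its bases, beside 0.594% and 0.532% of chromosomes 1 to 19, X and Y. From Hbb-bt to Hbb-y the counts were 1401 and 740 bases. Upstream of Hbb-y as far as Olfr66 they were 1344 and 279 bases, the stretch in which the libraries differed most. From Olfr66 to the end of the window they were 673 and 584 bases.

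**Figure D4:**
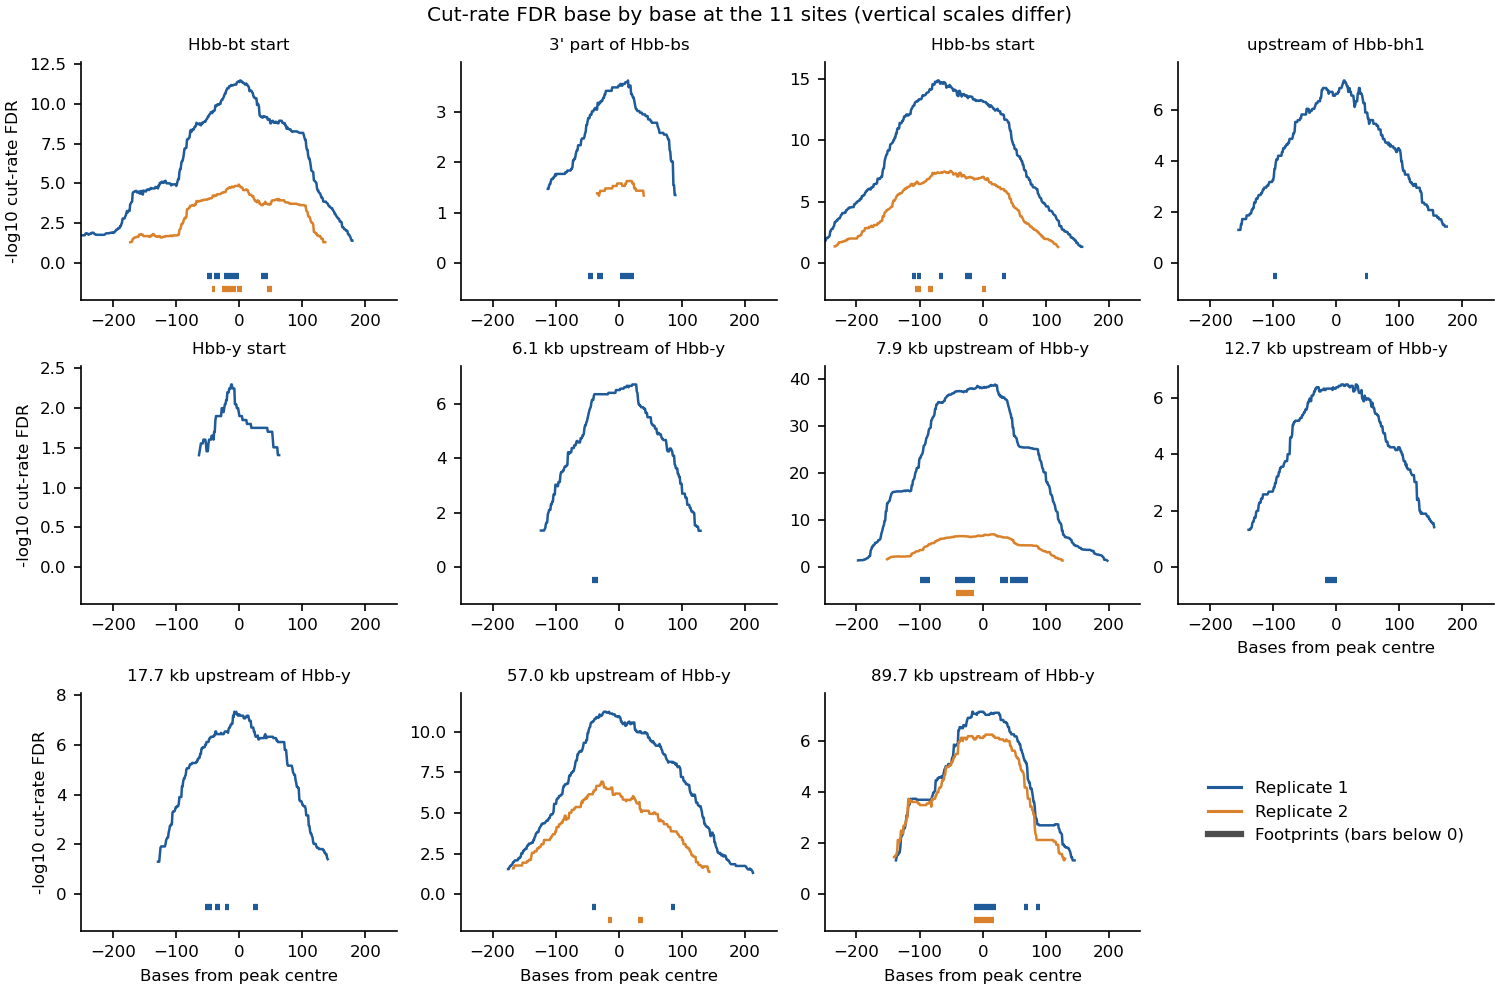
The negative log10 of the deposited cut-rate FDR at each base (vertical axes, scales differ) within 250 bases of the peak centre at the 11 sites, for replicate 1 (blue) and replicate 2 (orange), with footprints as bars below 0. The 2 curves nearly coincide at the 89.7 kb site, replicate 2 is far lower at the 7.9 kb site, and 5 panels hold no replicate 2 curve.

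Footprints, short stretches protected from cutting inside an open site, numbered 29 in replicate 1 and 11 in replicate 2. At least 1 lay in 10 of the 11 peaks of replicate 1, beside 76.8% of all its peaks, and in 5 of the 6 peaks of replicate 2, beside 72.7%. Of the 11 footprints of replicate 2, 7 overlapped one of replicate 1, beside 55.8% of all its footprints. These are counts of 11 or fewer. A footprint gives a position and no factor.

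At the 7.9 kb site a footprint of 34 bases in replicate 1 (chr7:103861076-103861109) and one of 29 bases in replicate 2 (chr7:103861078-103861106) both covered the tandem NFE2 pair. It was the only footprint of replicate 2 at this site, against 4 in replicate 1. At the 89.7 kb site footprints of 35 bases (chr7:103942927-103942961) and 33 bases (chr7:103942926-103942958) covered the CTCF core in both libraries. These 2 positions held the longest footprints of the window in each library.

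The footprints of the adult promoters were shorter. At the Hbb-bt start, footprints of 25 bases in replicate 1 and 23 bases in replicate 2 covered ATATAA. The CCAAT pair from -80 to -71 overlapped a footprint in replicate 1 only, by 5 and 4 of 5 bases. Widened by 5 bases on each side, a replicate 2 footprint held 4 of the 5 bases of the CCAAT from -80 to -76. The CCAAT from -36 to -32 overlapped footprints of both libraries, by 5 bases in replicate 1 and 3 in replicate 2. At the Hbb-bs start a 12-base footprint of replicate 1 lay between the CCAAT and CACCC boxes and held 2 of the 5 bases of CCAAT and 1 of the 8 of CCACACCC. Widened by 5 bases on each side it held all 5 and 6 of 8. Neither box overlapped a footprint of replicate 2.

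Among the distal sites, 1 footprint of replicate 1 at the 17.7 kb site held 3 of the 6 bases of AGATAA and 2 of the 6 of TGATAA, and all of both when widened. At the 57 kb site a replicate 1 footprint held 2 of the 6 bases of CAGATG, all 6 when widened, and a replicate 2 footprint held all of TGATAA.

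The patterns were searched as exact letters on both strands: AGATAA or TGATAA for GATA factors, TGAGTCA alone for AP-1 and with TGC before it for NFE2, which therefore includes the AP-1 letters. CCACACCC stood for KLF factors, CAGATG for the E-box of TAL1, CCAAT for the CCAAT box, and CATAAA or ATATAA for TATA-like boxes. CTG and AGATAA 8 bases apart stood for the joint E-box and GATA pattern. In the 200 bases at their centre, 4 of the 11 sites held the GATA pattern, beside 15.4% of all replicate 1 peaks. The NFE2 pattern was in 1 of 11 sites, beside 0.555%, and at least 2 copies of the AP-1 letters were in 1 of 11, beside 0.248%. The E-box was in 5 of 11, beside 13.1%, CCAAT in 5, beside 22.9%, and the TATA-like letters in 3, beside 6.45%. The KLF pattern was in 1 site, beside 4.197%, the CTCF core in 1, beside 12.6%, the AP-1 letters in 2, beside 3.86%, and the joint E-box and GATA pattern in 0, beside 1.16%. Of 32851 RefSeq promoters of 300 bases, 3.56% held CCACACCC, 37.4% CCAAT and 19.5% a TATA-like pattern.

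**Figure D5:**
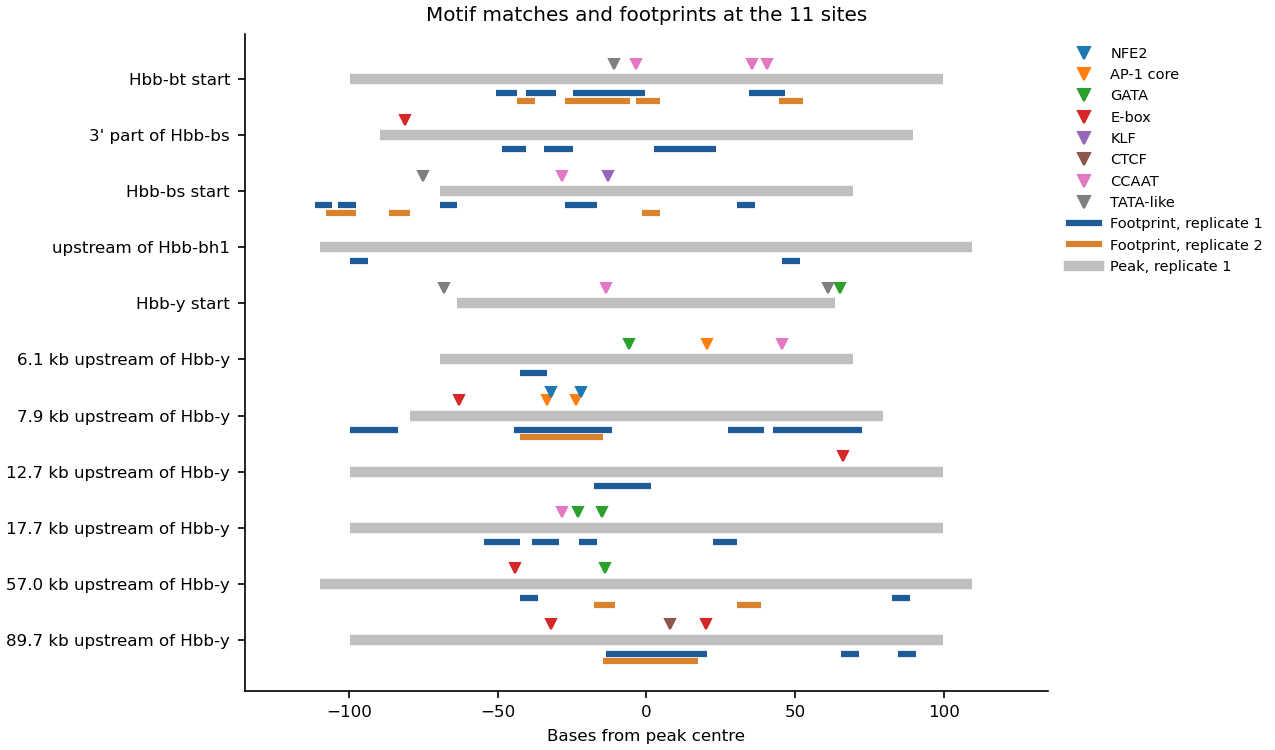
Positions of pattern matches (triangles) and of footprints in replicate 1 (blue bars) and replicate 2 (orange bars) relative to the peak centre in bases, at the 11 sites; grey bars are the replicate 1 peaks. Footprints of both libraries overlie the NFE2 pair at the 7.9 kb site and the CTCF core at the 89.7 kb site.

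The olfactory receptor genes around the locus had no open promoter. None of the 13 protein-coding ones in the window had a peak under 1000 bases from a start in either library, beside 0.617% of 1135 such genes in replicate 1 and 0.264% in replicate 2. This count is near those shares and is not a result particular to the receptor genes of this window. Downstream of Hbb-bt, 112524 bases with 7 of these genes held no peak, no footprint and no base with an FDR under 0.05 in either library. The 57 kb and 89.7 kb sites lay between olfactory receptor genes, with Olfr633 the nearest start, 1397 bases from the 89.7 kb site.

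The regulators of the locus had open promoters in both libraries, 24 of 24 genes, beside 52.9% of all protein-coding genes. Their median log2 ratio was -0.91, beside -0.50 for all shared peaks, but these are not medians at like height. The regulator promoters ran from 1.18 to 26.8 in replicate 1. Over classes of replicate 1 value, the median of shared peaks fell from -0.34 near 1.21 to -0.83 near 7.94 and -1.34 near 19.5. The regulators as a list were not set against shared peaks of like height. Zfpm1, the FOG1 partner of GATA1, had a promoter value of 26.8 in replicate 1 and 12.2 in replicate 2. Nr2c2, a nuclear receptor known to repress embryonic globin genes, had 26.2 in replicate 1 and 10.6 in replicate 2. Smarca4, the remodelling enzyme BRG1, had 22.7 in replicate 1 and 8.71 in replicate 2. Zbtb7a, known in human cells as a repressor of fetal globin, had 22.6 in replicate 1 and 10.2 in replicate 2. Mafk, a small Maf partner of NFE2, had 20.96 in replicate 1 and 8.16 in replicate 2. These 5 are named for their high values. Of all 24, 9 were above the highest globin site in replicate 1 and 15 below it, among them Gata1 at 3.01, Klf1 at 3.70 and Tal1 at 7.50. In replicate 2, 20 were above the highest globin site and 4 below it.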

How the data were processed

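DNase-seq of 2 libraries, biological replicates 1 and 2 of 1 group, was analysed from the tables the authors deposited on mm10. For each library the authors gave a longer and a shorter peak list with a depth-normalised signal per peak. They also gave footprints with a constant deposited score of 0.01. A deposited FDR of the cut rate along the genome was listed where it is under 0.05. Peaks were made per library, per the file headers. The sources used here give neither the caller nor its threshold, nor how reads with several matches were treated. Replicates may differ for technical reasons, and no test between groups was possible.

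The longer list and chromosomes 1 to 19, X and Y were used. Peaks were shared when they overlapped by 1 base, and ratios used pairs that overlapped 1 to 1. Starts came from GENCODE vM21, promoter sequences from RefSeq (GRCm38.p6) and other sequences from the GRCm38 genome. Python 3.11.15 with numpy 2.4.6, scipy 1.17.1 and pysam 0.24.0 was used. The functions were tested on simulated data: with 200 of 3984 shared peaks shifted by -1.5, the ratio less that of peaks of like mean height read -1.70, and -1.47 when ranked by replicate 1. All members, every gene of the window with a peak, footprint or FDR stretch near its start, every peak of the window, and the 5 regulators with the highest promoter values are named; Olfr633, Olfr66 and the other genes named were added for position. The members and lists were chosen with earlier results of these data known. The alternatives tried were the shorter list, other distances, overlaps, FDR thresholds, footprint lengths and rankings, and leaving out each replicate. The values of 1 marker gene are not reported here.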

Additional observations from a re-analysis of the deposited data

How the results depend on the processing

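Leaving out each replicate in turn gave 6 to 11 peaks in the window, 1603 to 3418 bases under an FDR of 0.05, and 11 to 29 footprints, replicate 2 alone giving the low value each time. With footprints of at least 10 bases the count was 19 in place of 40. Within 2500 bases in place of 1000, 1 olfactory receptor gene, Olfr633, had a promoter peak in place of 0. The lower counts follow from what these alternatives leave out, a library or the shorter footprints, and the wider distance takes in a peak 1397 bases from Olfr633. Of the other alternatives, 47 values stayed within the spread or 1.5 times the value used, and none reversed. No paired analysis was possible because the series holds 1 group. Counting error limits sites near the lowest listed values: the Hbb-y start rests on 62 steps in replicate 1. An absent peak in replicate 2 means that no peak was listed at this depth, and does not by itself show that the site was closed. What the absent peaks stem from was not tested.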
